A study of Mus musculus with 16 samples.

Results

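The Hox cluster genes are the homeobox transcription factor genes that lie side by side in the mouse Hoxa, Hoxb, Hoxc and Hoxd clusters. They were taken as every protein-coding gene whose symbol is Hoxa, Hoxb, Hoxc or Hoxd followed by a number alone, which gave 39 of the 55536 genes counted by RNA-seq. The choice used symbols and no measured value. The 16 libraries came from bone marrow (BM), from samples labelled MSC and from tumors. Each kind of sample came from wild-type mice, labelled KLF WT, and from mice labelled KLF K74R, an allele of a KLF transcription factor gene that the labels do not name further, in which a lysine is replaced by an arginine. BM had 3 WT and 3 K74R libraries, MSC had 2 and 2, and tumor had 3 and 3. The sample titles call the K74R libraries KO, while the genotype label is K74R. The tumors were of MC38, a mouse colon adenocarcinoma line, and measured at most 1000 mm3. The line has the same name in tumors of both genotypes, and whether MC38 cells carry the allele is unstated in the sources used here. Strain, age, site of the tumors and the way the MSC samples were obtained are likewise unstated. No label states whether replicates came from different animals, so p-values cover the spread between libraries, which may be technical. The series compares expression between the 2 genotypes in each tissue.

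Hox proteins bind DNA through a homeodomain, usually together with TALE partners of the Pbx, Meis and Pknox families. Genes with the same number in different clusters, called a paralog group, descend from a common ancestor and act alike in many tissues. In the embryo, genes of low number are switched on first and toward the head, and genes of high number later and toward the tail. Adult fibroblasts and stromal cells keep a Hox pattern that records the body position they came from, while hematopoietic stem and progenitor cells use mainly Hoxa and Hoxb genes. Polycomb complexes keep Hox genes silent, and trithorax-type complexes such as that of Kmt2a keep them active. Retinoic acid is a classical inducer of the genes at the low-number end.

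On GRCm38 the 11 Hoxa genes lie on chromosome 6, on the minus strand. The 10 Hoxb genes span chromosome 11 from 96194316 to 96368256 on the plus strand. The 9 Hoxc genes span chromosome 15 from 102921103 to 103036852, and the 9 Hoxd genes chromosome 2 from 74668310 to 74765142, both on the plus strand. By paralog number, 8 members are anterior (groups 1 to 3), 15 central (groups 4 to 8) and 16 posterior (groups 9 to 13). Some exons are shared with other annotated genes, and the sources used here do not give the strand setting of the counting. The shared part of the exon length is 62.9% in Hoxd3, 52.9% in Hoxb3, 52.3% in Hoxd4, 35.0% in Hoxa11, 27.3% in Hoxb2 and 27.1% in Hoxa3. Reads of these genes and of their partners, several of them antisense, cannot be told apart.

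Library totals lay between 14067259 and 18923751 counts, so that 3 counts, the limit that a count of 0 allows in a library, stood for 0.159 to 0.213 CPM (counts over the library total, scaled by the usual constant and by edgeR's trimmed mean factors). These limits cover counting error only. The Hox genes together took 277 to 386 counts in a BM library, 2545 to 5061 in an MSC library and 4000 to 4842 in a tumor library. Labels were checked against marker lists. Blood cell genes summed to between 28360 and 38000 CPM in BM. In MSC, stromal genes such as Col1a1 and Col1a2 summed to between 12800 and 17350 CPM, but Lyz2, Csf1r and Adgre1, genes of macrophages, were high too. The tumors had almost no epithelial RNA: the 9 epithelial markers summed to between 4.56 and 8.96 CPM, most of it Cdh1, and Cdx2 was at 0 counts in all libraries. The MSC libraries stood apart from each other within each genotype. The chi-square per degree of freedom between replicates was 51.4 for WT MSC and 58.7 for K74R MSC, against 6.86 to 19.6 for replicates of BM and tumor. Endothelial genes summed to 284.3 and 1528 CPM in WT MSC libraries 1 and 2, and to 15 and 23.8 CPM in the K74R MSC libraries.

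Hox RNA was scarce in bone marrow and plentiful in MSC and tumor. A group mean of at least 1 CPM was reached by 5 members in WT BM, 27 in WT MSC and 25 in WT tumor, and by 5, 23 and 24 in the K74R groups. The same 5 genes, Hoxa5, Hoxa7, Hoxa9, Hoxa10 and Hoxb4, reached it in every tissue and genotype. In all, 32 members reached it in at least 1 group. The 7 that did not were Hoxb1, Hoxb2, Hoxd1, Hoxd3, Hoxd4, Hoxd11 and Hoxd12. Hoxd1 and Hoxd11 had 0 counts in all 16 libraries. In bulk samples, fewer cells of a type and less RNA per cell cannot be told apart.

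**Figure D1:**
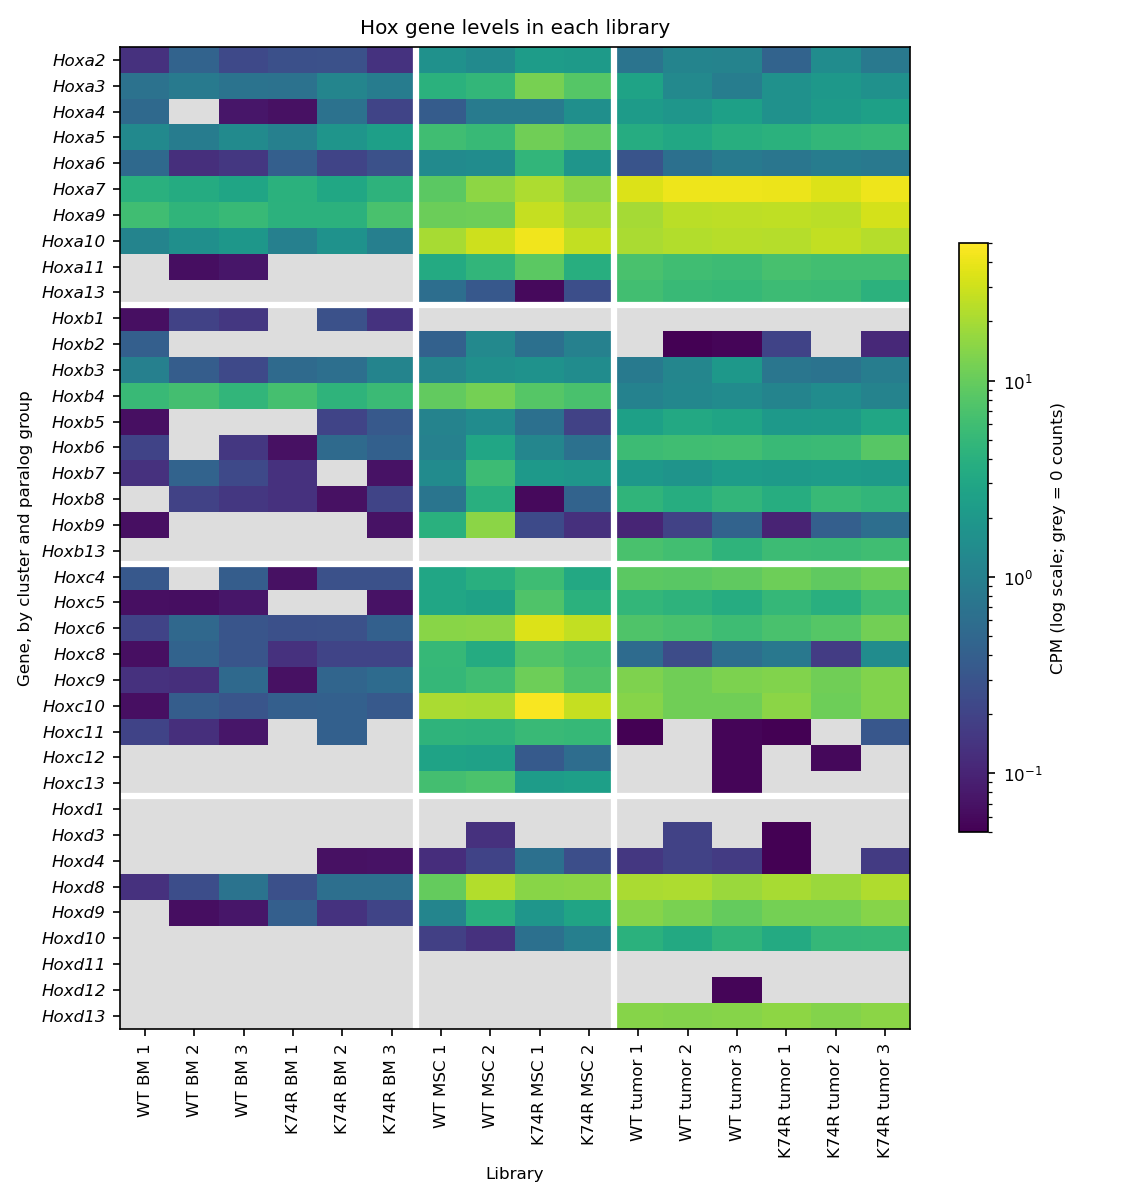
CPM of 38 Hox genes (rows, by cluster and paralog group) in each library (columns), colored on a log scale, with grey for 0 counts. The BM columns are dark outside Hoxa5, Hoxa7, Hoxa9, Hoxa10 and Hoxb4, the Hoxc11, Hoxc12 and Hoxc13 rows are bright in MSC, and the Hoxb13 and Hoxd13 rows are bright in tumors alone.

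Each tissue drew on the 4 clusters in different proportion. Levels were summed per kilobase of exon (RPKM, CPM divided by exon length), so that long and short genes count alike. The Hoxa cluster gave 53.8 ± 6.16% of the Hox total in WT BM (SD, n = 3) and the Hoxb cluster 35.3 ± 4.90%, while Hoxc and Hoxd gave 8.85 ± 3.09% and 2.08 ± 1.74%. In WT MSC the Hoxc cluster gave the most, 47.9% and 35.5% of the total in libraries 1 and 2, followed by Hoxa with 33.1% and 31.4%. In WT tumor the Hoxa cluster led again with 41.7 ± 3.04% (n = 3), and the Hoxd cluster reached 24.1 ± 1.67%. The Hoxd share was thus above every MSC and BM library in all 6 tumors, since the highest share outside tumor was 11.9% in WT MSC library 2. Posterior genes made up 23.5 ± 4.15% of the total in WT BM, 51.0% and 48.3% in the WT MSC libraries and 50.3 ± 2.1% in WT tumor. The K74R libraries gave 22.1 ± 2.03%, 47.9% and 44.6%, and 50.2 ± 1.63% in the same order.

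**Figure D2:**
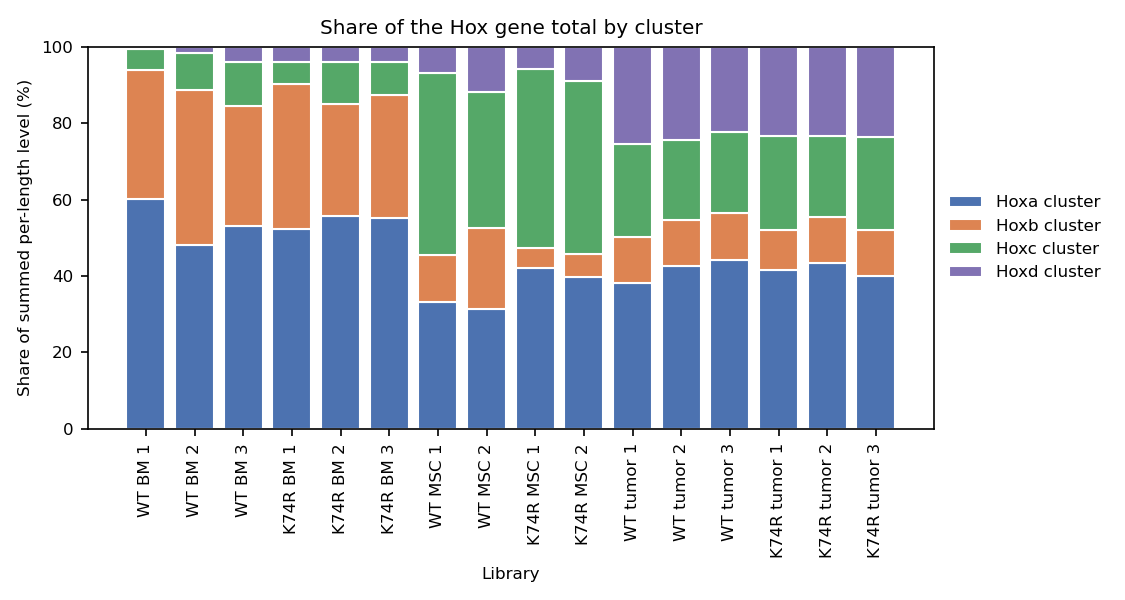
Share of the summed per-length Hox level (percent, y axis) that each cluster gives in each library (x axis). Hoxa and Hoxb fill nearly all of the BM bars, Hoxc is the widest band in the 4 MSC bars, and the Hoxd band is widest in the 6 tumor bars.

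Bone marrow held a short list of Hox genes. Hoxb4, which expands hematopoietic stem cells when overexpressed, had the highest level per length, 2.16 ± 0.329 RPKM in WT (SD, n = 3) and 2.16 ± 0.401 RPKM in K74R. Its CPM was 5.47, 6.43 and 4.74 in the WT libraries and 6.58, 4.52 and 5.5 in the K74R libraries, so the genotypes overlapped. Hoxa7 came next with 1.20 ± 0.190 RPKM in WT. Hoxa9, which supports stem cell self-renewal and is a main target of MLL fusion leukemias, followed in WT with 0.950 ± 0.123 RPKM. Per length, Hoxb4 lay above Hoxa7 in every WT library, while the libraries of Hoxa7 and Hoxa9 overlapped. Hoxa9 stood at 6, 4.63 and 5.28 CPM for WT and at 4.20, 4.25 and 6.82 CPM for K74R. Hoxa5 had 1.33, 0.900 and 1.38 CPM for WT and 1.02, 1.85 and 2.44 CPM for K74R, and Hoxa10 averaged 1.53 ± 0.390 and 1.24 ± 0.414 CPM. Again the libraries of the genotypes overlapped for both. Within Hoxc and Hoxd the highest members per length in WT BM were Hoxc6 at 0.141 ± 0.0663 RPKM and Hoxd8 at 0.131 ± 0.106 RPKM. Hoxa13, Hoxb13, Hoxc13 and Hoxd13 had 0 counts in all 6 BM libraries, which allows up to 0.0688 CPM over the WT group. Another 6 members, Hoxc12, Hoxd1, Hoxd3, Hoxd10, Hoxd11 and Hoxd12, had none either.

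In MSC the posterior and central genes of Hoxa and Hoxc led. Hoxc10, a gene of the lumbar and hindlimb level, had 20.8 and 20.4 CPM in the WT libraries and 47.3 and 27.2 CPM in the K74R libraries. At 10.8 ± 0.124 RPKM (SD, n = 2) it was the highest WT MSC member per length. Hoxa10, which patterns the lumbar spine and the uterus, had 20.2 and 29.4 CPM for WT and 42.8 and 26.9 CPM for K74R, and 7.58 ± 1.99 RPKM in WT. The genotypes were separate for Hoxc10 and overlapped for Hoxa10. Hoxc6, a thoracic-level gene, had 14.8 and 15 CPM for WT and 34.7 and 26.4 CPM for K74R. Hoxd8, the leading Hoxd gene of MSC, differed more between the WT libraries (9.78 and 22.6 CPM) than between the genotypes (K74R 14.8 and 14.9 CPM). Hoxb4 led the Hoxb cluster with 9.53 and 11.7 CPM for WT and 8.12 and 6.82 CPM for K74R.

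The far posterior end of the Hoxc cluster was read mostly in MSC. Hoxc13, which is required for hair and nail formation, had 6.33 and 7.11 CPM in WT MSC, 2.29 and 2.47 CPM for K74R MSC, 0 counts in BM and 1 count in 1 tumor library. Hoxc12 had 2.77 and 2.57 CPM in WT MSC and 0.353 and 0.584 CPM for K74R MSC. It had 0 counts in BM and 1 count each in WT and K74R tumor. Hoxc11 had 4.43 and 4.33 CPM in WT MSC and 5.35 and 5.06 CPM for K74R MSC, against means of at most 0.137 CPM in BM and tumor groups. Every MSC library lay above every BM and tumor library for each of these 3 genes. Group 13 genes of the other clusters were low or silent in MSC. Hoxa13 averaged 0.477 ± 0.195 CPM in WT, from 15 counts, and Hoxb13 and Hoxd13 had 0 counts in all 4 libraries, which allows up to 0.0967 CPM over the WT group.

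Tumors carried the group 13 genes of Hoxa, Hoxb and Hoxd. Hoxd13, which patterns digits and the hindgut end, had 14.4, 14 and 14.4 CPM in the WT tumors and 15.3, 13.8 and 14.9 CPM in the K74R tumors. Every tumor library thus lay between 13.8 and 15.3 CPM, while all 10 BM and MSC libraries had 0 counts. Hoxb13, a gene of the tail end and the prostate, had 6.81, 6.12 and 4.51 CPM for WT and 5.65, 5.56 and 5.99 CPM for K74R tumors, again with 0 counts elsewhere. Hoxa13, which acts in limb ends and the hindgut, had 6.15, 5.38 and 5.06 CPM for WT and 5.65, 5.5 and 4.29 CPM for K74R. For Hoxa13 the tumors lay above every MSC library, of which the highest had 0.615 CPM. Hoxd12 and Hoxd11 lie between Hoxd13 and Hoxd10 on the chromosome and were almost silent in the same tumors. Hoxd12 had 1 count in 1 WT tumor, Hoxd11 had none, and Hoxd10 had 4.02 ± 0.665 CPM in WT (SD, n = 3) and 4.45 ± 0.940 CPM for K74R.

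The promoters of these neighbors are shown because their genes were at opposite levels in the tumors. Shown with them are the promoters of Hoxa13, high in tumors, and of Hoxb4, the leading gene of bone marrow per length. By CPM the bone marrow libraries of Hoxb4 and Hoxa9 overlapped. Each is the 250 bases before the gene's start, 5′ to 3′ on the gene's strand, from RefSeq on GRCm38.p6, with CG dinucleotides in capitals. The regions are chr2:74667975-74668224 (plus) for Hoxd13, chr2:74674763-74675012 (plus) for Hoxd12, chr6:52260881-52261130 (minus) for Hoxa13 and chr11:96318017-96318266 (plus) for Hoxb4.
Hoxd13: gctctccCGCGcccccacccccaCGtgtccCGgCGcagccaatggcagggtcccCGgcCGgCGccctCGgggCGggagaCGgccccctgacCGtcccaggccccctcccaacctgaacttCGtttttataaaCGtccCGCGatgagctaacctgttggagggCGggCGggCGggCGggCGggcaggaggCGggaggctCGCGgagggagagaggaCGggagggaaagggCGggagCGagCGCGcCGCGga
Hoxd12: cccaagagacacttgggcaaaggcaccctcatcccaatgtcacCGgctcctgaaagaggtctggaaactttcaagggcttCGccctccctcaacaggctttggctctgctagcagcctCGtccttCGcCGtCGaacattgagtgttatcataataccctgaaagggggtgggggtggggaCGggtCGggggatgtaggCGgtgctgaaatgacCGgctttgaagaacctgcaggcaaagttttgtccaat
Hoxa13: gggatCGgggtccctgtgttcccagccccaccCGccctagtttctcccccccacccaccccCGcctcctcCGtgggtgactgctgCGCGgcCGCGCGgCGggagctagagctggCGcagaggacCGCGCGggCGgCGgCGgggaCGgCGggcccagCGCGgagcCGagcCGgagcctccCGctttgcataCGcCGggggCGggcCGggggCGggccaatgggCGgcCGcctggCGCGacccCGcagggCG
Hoxb4: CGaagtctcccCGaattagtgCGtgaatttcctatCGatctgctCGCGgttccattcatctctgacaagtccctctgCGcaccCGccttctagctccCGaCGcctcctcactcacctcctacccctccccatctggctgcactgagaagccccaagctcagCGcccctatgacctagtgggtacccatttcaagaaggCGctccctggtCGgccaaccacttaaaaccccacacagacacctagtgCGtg
Hoxd13 holds 31 CG dinucleotides and 74.4% G and C in this window, and Hoxd12 holds 10 and 55.6%. Hoxa13 holds 35 and 80.0%, the most of the members with a promoter in the table, and Hoxb4 holds 14 and 58.0%. The table had an entry for 22 of the 39 members, with 24 promoters, whose median was 12.5 CG dinucleotides, against 6 over its 32851 promoters. The Hoxd1 window holds 24, and its gene had 0 counts. Hoxd11, also at 0 counts, has windows with 2 and 20, and the Hoxd10 window holds 20. Of other genes high in tumors, Hoxa7 holds 7, Hoxd8 6, Hoxa9 3 and Hoxd9 13, and the windows of Hoxa10 hold 7 and 20. A relation between CG dinucleotides and level was not tested. The letters TATAAA, the core of a TATA box, occur on either strand in 16.7% of the Hox promoters, Hoxd13 among them, and in 12.4% of all. TGATNNAT, a form of the site that Hox and Pbx proteins share, occurs in 16.7% and 7.68%. TTTATG, a form that posterior Hox proteins prefer, occurs in 20.8% and 10.8%. A match of TGATNNAT can share bases with a match of either other motif. These matches describe the sequence alone.

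**Figure D3:**
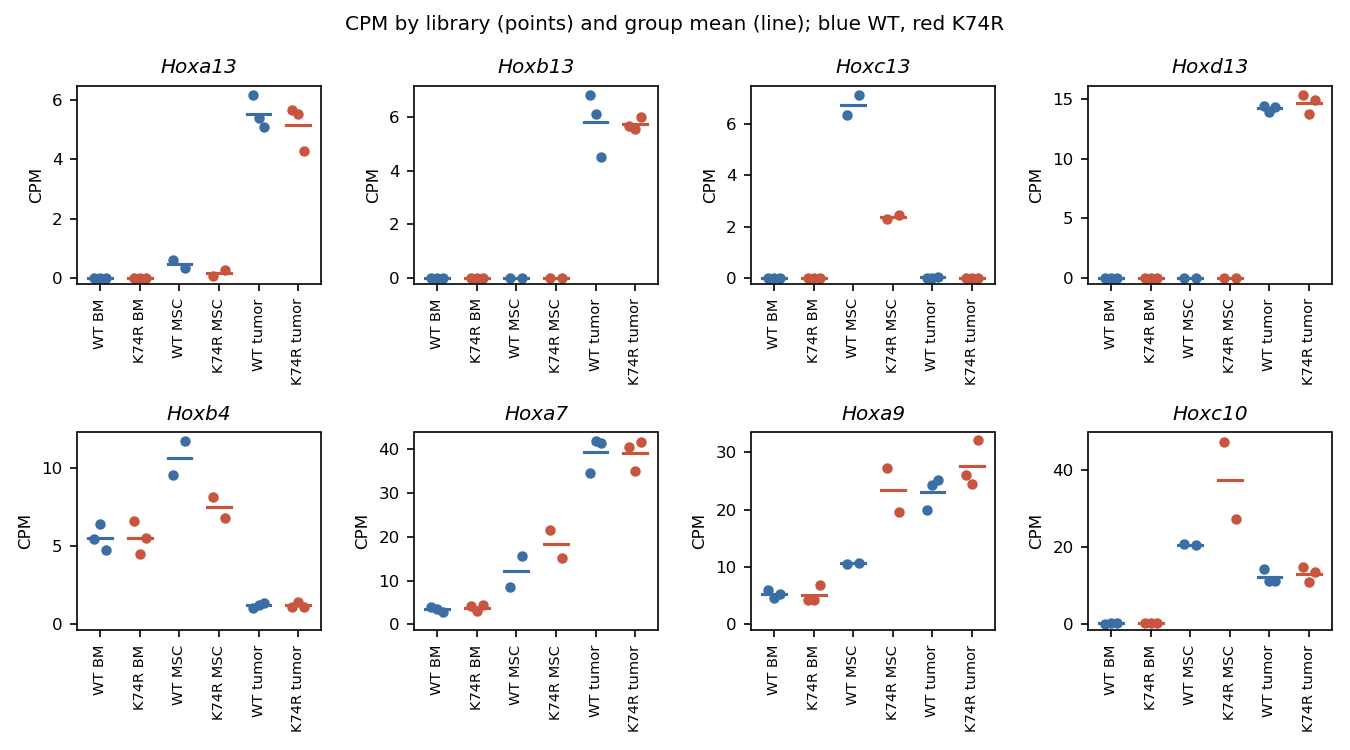
CPM (y axes, each from 0) of 8 Hox genes in each library (points) with group means (lines), for WT (blue) and K74R (red). Hoxd13 and Hoxb13 are at 0 in all BM and MSC libraries, Hoxc13 is present in MSC, and Hoxb4 is lowest in the tumors.

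Tumors also held central genes and genes of groups 9 and 10 at high levels. Hoxa7, a central gene, was the highest member per length with 13.7 ± 1.44 RPKM in WT and 13.6 ± 1.21 RPKM in K74R (SD, n = 3 and 3). It stood at 34.5, 41.9 and 41.5 CPM for WT and at 40.6, 35.1 and 41.6 CPM for K74R tumors, above the highest value elsewhere, 21.5 CPM for K74R MSC library 1. Per length Hoxd8 came next by mean in WT tumor with 7.31 RPKM, ahead of Hoxa10 with 6.83 RPKM, and their libraries overlapped. In K74R tumor Hoxa10 was ahead by mean, with 7.41 RPKM against 7.35 RPKM for Hoxd8. Hoxd8 had 21, 21.3 and 17.9 CPM for WT and 20.4, 17.9 and 22.2 CPM for K74R. Hoxa10 had 20.7, 22.6 and 23.7 CPM for WT and 23.4, 26.3 and 23 CPM for K74R. By mean CPM, Hoxa9 (23.17) and Hoxa10 (22.34) stood above Hoxd8 (20.07) in WT tumor. Hoxd9 had 12.0 ± 2.21 and 12.6 ± 1.36 CPM, Hoxc9 had 12.3 ± 1.01 and 12.8 ± 1.32 CPM, and Hoxc10 had 12.3 ± 1.82 and 13.2 ± 2.00 CPM for WT and K74R tumors. These values overlapped between genotypes. Hoxb6 led the Hoxb cluster per length, with 5.70, 6.02 and 6.23 CPM for WT and 5.45, 5.5 and 8.29 CPM for K74R. Hoxb4 went the other way from Hoxa7: it had 1.06, 1.23 and 1.39 CPM in WT tumors and 1.14, 1.43 and 1.10 CPM for K74R tumors, below every BM and MSC library.

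The tissues were compared within each genotype with edgeR's quasi-likelihood test, Benjamini-Hochberg adjusted over all genes, at a threshold of 0.05. Of the 39 members, 32 passed the filter on low counts in the WT libraries and 30 in the K74R libraries. The filter keeps a gene that is high in 1 tissue alone, so such a gene is bound to differ. In WT MSC against WT BM 28 of 32 members were higher and none was lower, beside 34.5% of all genes higher, 36.3% lower and 70.8% called in either direction. The 4 without a call were Hoxa4, Hoxb3, Hoxb13 and Hoxd13. The members' median log2 fold change was 4.02, against -0.07 over all genes, and 3.98 over the 30 members with a count when those at 0 in BM were set to their lower bound. In WT tumor against WT BM 24 members were higher and 1, Hoxb4, was lower, beside 37.1% of all genes higher, 36.4% lower and 73.5% called in all. The median was 3.96 over the members and 0.01 over all genes.

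The K74R libraries, which the WT fit did not use, gave 24 of 30 members higher and none lower in MSC against BM (34.1% of all genes higher, 35.4% lower, 69.5% called). In tumor against BM they gave 26 higher and 1, Hoxb4, lower (38.3% higher, 37.6% lower, 75.9% called). Of the WT calls, 22 of 28 (78.6%) for MSC and 25 of 25 for tumor were called in the same direction in K74R, which is 91.7% and 92.6% of the K74R calls. The share of all genes called in the same direction in both genotypes is not given here. These counts are therefore not a result about Hox genes in particular. The tumor counts include genes high in tumor alone, such as Hoxd13, which are bound to differ. Called in WT MSC against WT BM and not in the K74R fit were Hoxb4, Hoxb5, Hoxb6, Hoxb8, Hoxb9 and Hoxc12, of which Hoxb9 and Hoxc12 did not pass the K74R filter.

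Between MSC and tumor the members split. In WT 10 of 32 were higher in MSC and 12 were higher in tumor, 22 in all, a share of 68.8% beside 67.3% over all genes (32.8% higher in MSC and 34.5% higher in tumor). In K74R 11 of 30 were higher in MSC and 10 in tumor, a share of 70.0% beside 61.9% (30.5% and 31.4%). These shares are near the background, and 17 members were called in the same direction in both genotypes. The share of all genes called so in both is not given here either. Higher in MSC in both were Hoxa3, Hoxa5, Hoxb4, Hoxc6, Hoxc8, Hoxc10, Hoxc11 and Hoxc13. Higher in tumor in both were Hoxa7, Hoxa13, Hoxb5, Hoxb6, Hoxb13, Hoxc4, Hoxd9, Hoxd10 and Hoxd13.

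Among single genes, Hoxc10 was 6.31 log2 units higher in WT MSC than in WT BM (SE 0.35, adjusted p = 2.1e-07, edgeR) and 6.55 in K74R. Hoxa10 was 4.02 units higher (SE 0.24, adjusted p = 3.26e-07) and 4.81 in K74R. Hoxd8 was 5.51 units higher in WT MSC and 5.82 in WT tumor than in WT BM, and 4.86 and 5.29 in K74R. The calls of these 3 genes passed in all 16 alternatives. Hoxa7 was 3.49 units higher in WT tumor than in WT BM (SE 0.24, adjusted p = 7.64e-07) and 3.33 in K74R. Hoxb4 was lower in tumor than in BM, with -2.18 log2 units in each genotype, and its level in WT MSC was 0.93 units above WT BM (adjusted p = 0.00429), with 0.43 in K74R (adjusted p = 0.152). Hoxd13 was at least 207-fold higher in WT tumor than in WT BM, taking 3 counts over the BM group as its limit, and at least 147-fold higher than in WT MSC. Hoxb13 was at least 84.5-fold and Hoxa13 at least 80.4-fold higher in WT tumor than in WT BM. Hoxc13 was at least 97.8-fold higher in WT MSC than in WT BM. Hoxd8 had a log2 fold change of -0.31 in WT MSC against WT tumor (adjusted p = 0.457), and the sign turned when WT MSC library 1 was left out (0.17, adjusted p = 0.613).

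In bone marrow K74R was compared with WT for the 6 members that passed the filter: Hoxa3, Hoxa5, Hoxa7, Hoxa9, Hoxa10 and Hoxb4. None was called with edgeR, beside 0.773% of all genes, and none had an unadjusted p under 0.05, beside 17.8%. Limma-voom called none (0.538% of all genes), and DESeq2 called none of the 3 to which it gave an adjusted p (4.15%). The smallest p-values were those of Hoxa5, a gene of lung and trachea development, and Hoxa3, which is needed for the thymus and parathyroid. Hoxa5 averaged 1.20 ± 0.264 CPM for WT and 1.77 ± 0.713 CPM for K74R (SD, n = 3 and 3; log2 fold change 0.57, SE 0.39, adjusted p = 0.472, edgeR). Hoxa3 had 0.667, 0.835 and 0.689 CPM for WT and 0.678, 1.16 and 0.905 CPM for K74R (0.33, SE 0.38, adjusted p = 0.686). The libraries of the genotypes overlapped for all 6 members, while they were separate for 22.9% of all genes.

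In MSC 1 of the 29 members tested was called between the genotypes, which is 3.45%, beside 3.34% of all genes: Hoxb9, which helps pattern ribs, was lower in K74R (1.29% of all genes were lower). Hoxb9 had 4.06 and 15.1 CPM in the WT libraries, from 289 counts, and 0.235 and 0.130 CPM in the K74R libraries, from 6 counts. Both K74R libraries lay below both WT libraries, and the WT libraries differed from each other several-fold. The log2 fold change was -5.64 (SE 0.88, adjusted p = 0.0376, edgeR). It passed in 10 of 13 alternatives. It was -4.42 with adjusted p = 0.0420 without WT MSC library 2, and the call was lost without K74R MSC library 1 (adjusted p = 0.179) or 2 (adjusted p = 0.0818) and with limma-voom (adjusted p = 0.0919).

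By cluster, with Hoxb9 counted, the MSC fold changes lay as follows, and no difference between clusters was tested. All 10 Hoxa members tested lay above 0 on the log2 scale, at 0.49 or more, with a median of 0.89; without K74R MSC library 1 it was 9 of 10, with a median of 0.59. In Hoxb 7 of 8 were negative, with a median of -0.97, and Hoxb3 was positive at 0.20. Without WT MSC library 2, 5 of the 8 were negative and the median was -0.29. Hoxb2, at -0.02, had 0.93 without that library, 0.29 without K74R MSC library 1 and 0.13 with limma-voom. In Hoxc 7 of 9 were positive and the last 2 by number, Hoxc12 and Hoxc13, were negative; without K74R MSC library 1 it was 6 of 9, with the median at 0.40 in place of 0.72. Hoxd8 and Hoxd9 were both at -0.12, and without WT MSC library 2 they were at 0.58 and 0.97. In all, 11 of 29 had an unadjusted p under 0.05, beside 26% of all genes. Of these 7 were positive and 4 negative, beside 13.5% and 12.5%. For 19 members (65.5%) the WT and K74R libraries were separate, beside 59.4% of all genes. Of these 13 were higher and 6 lower in K74R, beside 30.4% and 29% of all genes. The median over the 29 members was 0.49, and over all genes 0.00.

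The members named next, which did not pass the threshold, were chosen after their values were seen. Hoxc12 (values above) had a log2 fold change of -2.51 (SE 0.48, adjusted p = 0.0536, edgeR) and Hoxc13 of -1.50 (SE 0.31, adjusted p = 0.0600). Hoxc6 had 1.03 (SE 0.22, adjusted p = 0.0624). Hoxa9 had 10.5 and 10.8 CPM for WT and 27.3 and 19.5 CPM for K74R (1.13, SE 0.25, adjusted p = 0.0648). Hoxa3, Hoxa5 and Hoxb8 lay further from the threshold. Hoxa3 had 4.12 and 4.88 CPM for WT and 12.2 and 7.98 CPM for K74R (1.16, SE 0.33, adjusted p = 0.104, edgeR). Hoxa5 had 5.965 and 5.28 CPM for WT and 11.1 and 8.96 CPM for K74R (0.83, SE 0.275, adjusted p = 0.140). Hoxb8, which blocks myeloid differentiation when enforced, had 0.738 and 3.86 CPM for WT and 0.0588 and 0.454 CPM for K74R (-3.15, SE 1.11, adjusted p = 0.151). DESeq2 called 6 members, with Hoxa9, Hoxb9, Hoxc6, Hoxc12 and Hoxc13 among them, beside 13.4% of all genes. A single model of all 16 libraries called 10 of 33, beside 24.4%, and limma-voom none, beside 2.8%.

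**Figure D4:**
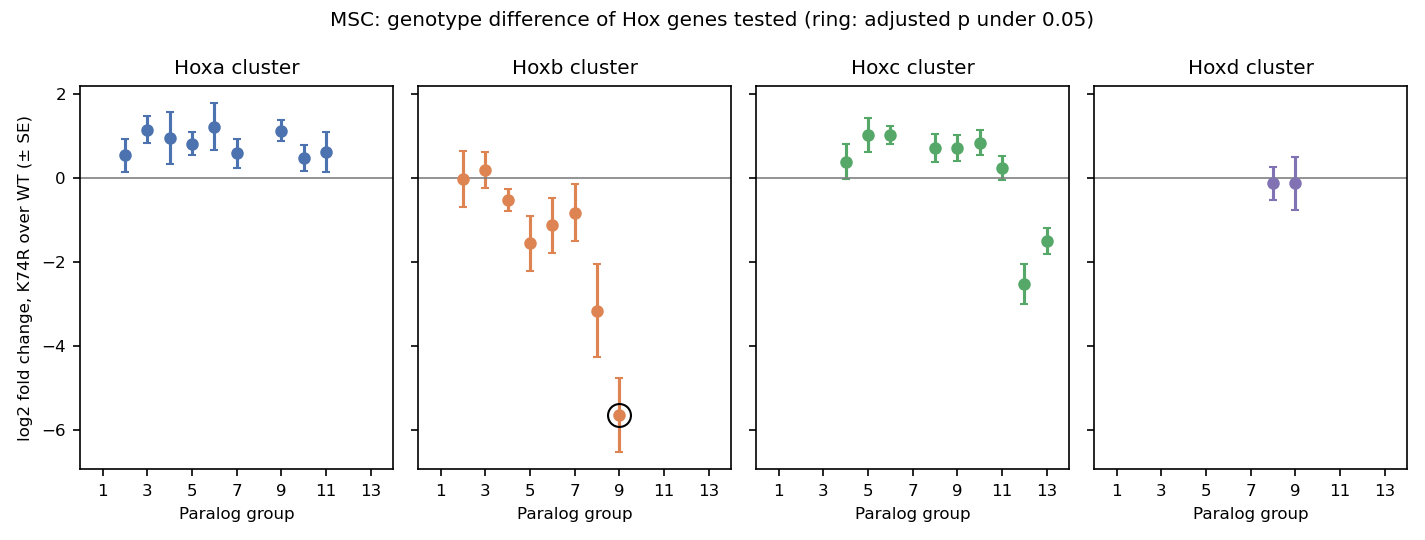
Log2 fold change of K74R over WT in MSC (y axis, bars ± SE from edgeR) for 28 of the 29 Hox genes tested, by paralog group (x axis) and cluster. With all 4 libraries the Hoxa genes lie above 0 and the Hoxb genes from Hoxb4 on below it, while without WT library 2 only 5 of 8 Hoxb genes are negative. The ringed Hoxb9 is the gene past the threshold.

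Markers of other cells moved with the genotype in the same MSC libraries. Over all genes there, edgeR called 3.34%, DESeq2 13.4% and limma-voom 2.8%, and 26% had an unadjusted p under 0.05 (edgeR). The 5 endothelial markers summed to 284.3 and 1528 CPM for WT and to 15 and 23.8 CPM for K74R, and Pecam1, Cdh5, Emcn and Tek were lower in K74R past the threshold (adjusted p = 0.0323, 0.0347, 0.0339 and 0.0327, edgeR). DESeq2 called all 5 and limma-voom 0. Their order over the 4 libraries put WT library 2 first and WT library 1 second. So did that of Hoxb4, Hoxb5, Hoxb8, Hoxb9 and Hoxc13. In Hoxb6 and Hoxb7 WT library 1 lay below K74R library 1. The 12 blood cell markers summed to 15060 and 12720 CPM for WT and to 5741 and 8531 CPM for K74R. None of the 4 of them that were tested passed the threshold with edgeR or limma-voom, 3 had an unadjusted p under 0.05, and DESeq2 called Lyz2, Csf1r and Adgre1 lower. Red cell and neutrophil genes such as Elane and Mpo were at or near 0. The 10 stem and progenitor markers summed to 68.5 and 246.2 CPM for WT and to 32.6 and 31 CPM for K74R, and Cd34 and Tal1, which endothelial cells also express, were lower (adjusted p = 0.0496 and 0.0497, edgeR; limma-voom called 0). The 12 stromal markers summed to 13130 and 14410 CPM for WT and to 12800 and 17350 CPM for K74R, which overlap, but single markers went both ways. Of the 11 tested none passed with edgeR or limma-voom, 7 had an unadjusted p under 0.05, and DESeq2 called 4 higher and 2 lower. Lepr and Col1a1 had log2 fold changes of 2.26 and 1.42, and Thy1 and Cxcl12 of -3.80 and -1.60 (adjusted p = 0.0513, 0.123, 0.0669 and 0.108, edgeR). The 9 epithelial markers summed to 1.6 and 8.60 CPM for WT and to 80.1 and 12.8 CPM for K74R, where nearly all of it was Krt19. The part of these cells in the Hox differences was not tested.

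**Figure D5:**
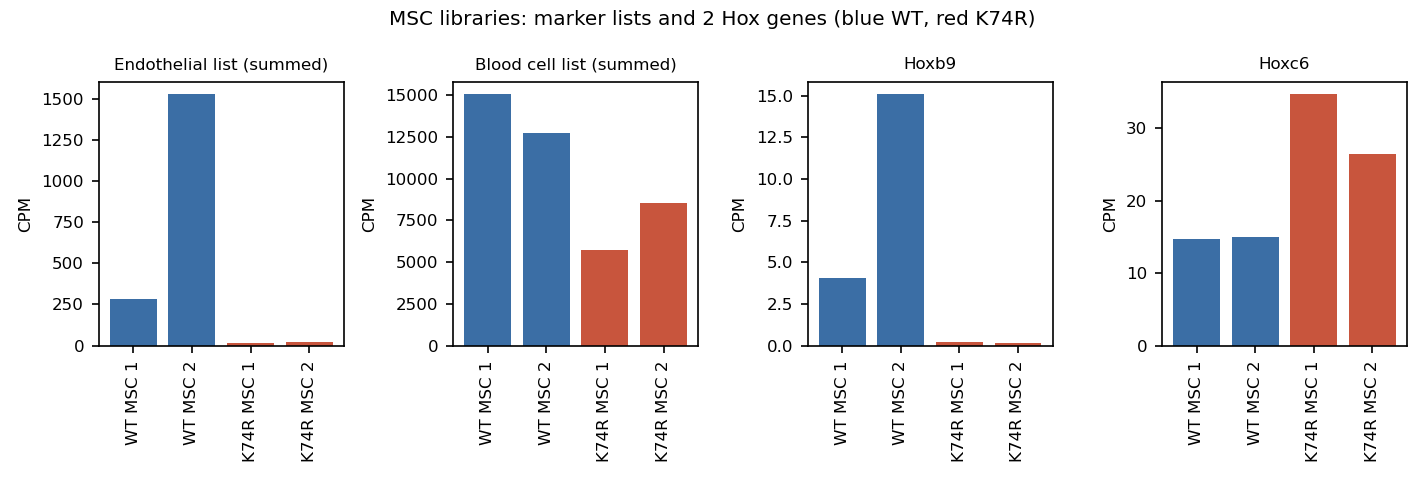
Summed CPM of the endothelial and blood cell marker lists, and CPM of Hoxb9 and Hoxc6, in each MSC library (bars from 0, WT blue, K74R red). The endothelial sum and Hoxb9 are both highest in WT library 2 and lowest in K74R, and Hoxc6 is higher in both K74R libraries.

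In tumors none of the 28 members tested was called between the genotypes with edgeR, beside 0.0406% of all genes, and none had an unadjusted p under 0.05, beside 11.2%. Limma-voom called none (0.0406% of all genes), and DESeq2 called none of the 22 to which it gave an adjusted p (1.66%). Hoxa5 had 3.58, 3.16 and 3.78 CPM for WT and 4.11, 4.82 and 5.16 CPM for K74R. It was the 1 member of 28 whose libraries were separate, beside 16.9% of all genes (log2 fold change 0.43, SE 0.20, adjusted p = 0.463). Hoxa9 had 19.9, 24.3 and 25.3 CPM for WT and 26.1, 24.5 and 32.1 CPM for K74R (0.26, SE 0.13, adjusted p = 0.489). The log2 fold changes of the 28 members ran from -0.75 in Hoxb3 to 0.78 in Hoxc8, 2 genes of low counts, with a median of 0.10.

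Whether the K74R effect differed between tissues was tested as an interaction over all 16 libraries. That fit gives each gene a spread shared by all groups, although MSC replicates stood further apart. Their chi-square per degree of freedom was 51.4 and 58.7, against 6.86 to 19.6 in BM and tumor. The p-values of interactions with MSC may thus be too small. Within MSC alone Hoxa9 had an adjusted p of 0.0648 and Hoxb9 of 0.0376 (edgeR). The effect in MSC differed from that in BM for 2 of 33 members, beside 18.8% of all genes. Hoxa9 had an interaction of 1.20 log2 units (adjusted p = 0.0163, edgeR) and Hoxb5, a central gene with 1.26 ± 0.223 CPM in WT MSC and 0.421 ± 0.320 CPM for K74R MSC, one of -4.19 (adjusted p = 0.0398). Hoxb5 rested on 1 count in WT BM and 8 in K74R BM. The effect in MSC differed from that in tumor for 2 of 33, beside 10.6% of all genes: Hoxb9 with -6.20 (adjusted p = 0.00356) and Hoxb8 with -3.23 (adjusted p = 0.0383). Hoxb9 passed in all 23 alternatives, Hoxa9 in 22 (not without K74R MSC library 1, adjusted p = 0.0916), Hoxb8 in 13 and Hoxb5 in 11. The Hoxb8 interaction was -1.61 without WT MSC library 2 (adjusted p = 0.308) and -2.37 without K74R MSC library 1 (adjusted p = 0.205). Its adjusted p was between 0.0502 and 0.0715 with limma-voom and without WT BM 3, K74R BM 1, any WT tumor library or K74R tumor 2 or 3. The Hoxb5 call was lost with limma-voom (0.061), with the replicate number as a block (0.0989) and without K74R BM 3 (-3.40, adjusted p = 0.163). It was also lost, at 0.0509 to 0.0919, without WT BM 2 or 3, K74R BM 2, either WT MSC library, K74R MSC 2 or any WT tumor library. Between tumor and BM no member differed with edgeR, beside 0.0385% of all genes, and 2 had an unadjusted p under 0.05, beside 11.5%. Limma-voom called none (0.044% of all genes), and DESeq2 none of the 24 to which it gave an adjusted p (1.3%).

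Genes that work with the Hox proteins were read from lists of 9 TALE cofactors, 20 upstream regulators and 17 retinoic acid genes. Among 8 TALE cofactors tested, none passed in BM or tumor with edgeR, DESeq2 or limma-voom. In each of these tissues 1 had an unadjusted p under 0.05 with edgeR, beside 17.8% and 11.2% of all genes. In MSC, where edgeR called 3.34% of all genes, 2 were higher in K74R, Meis2 among them. Meis2 had 11.1 and 9.55 CPM in WT MSC and 38.7 and 26.2 CPM for K74R MSC (log2 fold change 1.64, SE 0.27, adjusted p = 0.0420, edgeR). Each K74R library lay above both WT libraries, and the call passed in 8 of 13 alternatives. Without WT library 1, WT library 2 or K74R library 1, Meis2 had an adjusted p of 0.055, 0.0999 and 0.157 (edgeR). It had 0.0503 with library size alone and 0.0517 with limma-voom. Meis1, which acts with Hoxa9 in hematopoietic stem cells, had 14 ± 3.2 CPM in WT BM and 12.3 ± 2.07 CPM in K74R BM. In BM the smallest p-value was that of Pknox1 (log2 fold change 0.24, adjusted p = 0.237) and in tumor that of Meis2 (-0.21, adjusted p = 0.426).

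Of the 17 upstream regulators tested, 1 passed in MSC (3.34% of all genes) and none in BM or tumor with edgeR. An unadjusted p under 0.05 was found for 6 in BM, 3 in MSC and 1 in tumor. The shares of all genes were 17.8%, 26% and 11.2%. DESeq2 called Kmt2a and Kat6a in BM (4.15% of all genes) and none in tumor (1.66%), and limma-voom none in either. Ezh2, the methyltransferase of Polycomb repressive complex, had 16.9 and 14.2 CPM in WT MSC and 41.1 and 46.7 CPM for K74R MSC (1.49, SE 0.21, adjusted p = 0.0319, edgeR; 10 of 13 alternatives). Both K74R libraries lay above both WT libraries. Leaving out WT library 2, K74R library 1 or K74R library 2 ended the call, with an adjusted p of 0.0858, 0.121 and 0.0585. All MSC values lay below those of BM, where Ezh2 averaged 210.0 ± 7.36 CPM in WT. In BM Kmt2a had 177.6 ± 11.4 CPM for WT and 227.3 ± 13.4 CPM for K74R (0.37, adjusted p = 0.0811). Kat6a, a histone acetyltransferase that acts on Hox genes in blood stem cells, had 226.6 ± 14.8 and 282.2 ± 7.54 CPM there (0.33, adjusted p = 0.0886). In tumor the smallest p-values were those of Cbx2 (0.38, adjusted p = 0.342) and Mllt3 (-0.14, adjusted p = 0.551).

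None of the retinoic acid genes tested, 8 in BM, 11 in MSC and 12 in tumor, passed between the genotypes with edgeR. An unadjusted p under 0.05 was found for 1, 5 and 1 of them, beside 17.8%, 26% and 11.2% of all genes. DESeq2 called 5 in MSC, 2 higher and 3 lower, beside 13.4% of all genes. It called none elsewhere, and limma-voom called none. Aldh1a1 and Aldh1a2, enzymes that make retinoic acid, had log2 fold changes of -2.45 and -2.21 in MSC (adjusted p = 0.0613 and 0.0634). In BM Rxrb had 0.24 (adjusted p = 0.186) and Aldh1a2 0.89 (adjusted p = 0.373). In tumor Aldh1a3 had 1.02 (adjusted p = 0.421) and Crabp2 -0.76 (adjusted p = 0.484). By mean level, Aldh1a1 led the list in WT BM with 172.4 ± 22.5 CPM, Dhrs3 in WT MSC with 208.6 ± 30.9 CPM, and Rxrb in WT tumor with 55.2 ± 2.75 CPM. In library 1 of WT MSC and of WT tumor another listed gene stood higher than the leader by mean.

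The 4 clusters hold other annotated genes between their first and last member: 20 in Hoxa, 9 in Hoxb, 7 in Hoxc and 10 in Hoxd. They were low beside the leading Hox genes, with no group mean above 3.27 CPM. Some Hox genes lay below the highest of them in the same group, such as Hoxb4 at 1.22 ± 0.182 CPM in K74R tumor. Hoxa11os, antisense to Hoxa11, was the highest, with 2.51 ± 0.674 CPM in WT tumor and 3.27 ± 0.937 CPM in K74R tumor (SD, n = 3 and 3). Hotairm1 led the Hoxa cluster in WT MSC with 2.11 ± 0.494 CPM. Hoxd3os1 led the Hoxd cluster in WT tumor with 1.85 ± 0.775 CPM, and Hoxb5os the Hoxb cluster with 1.13 ± 0.0765 CPM. Hotair, the Hoxc non-coding RNA, averaged 0.846 ± 0.240 CPM in WT MSC and 0.374 ± 0.235 CPM in WT tumor. Of 7 microRNA genes in the clusters, 3 had no count, and the highest value in any library was 0.348 CPM. The library kit selects polyadenylated RNA, so mature microRNAs are not measured here.

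The other members that reached 1 CPM had the following levels. In Hoxa, Hoxa2 had group means from 0.228 CPM in K74R BM to 2.22 CPM for K74R MSC, and Hoxa4 from 0.203 CPM in WT BM to 2.20 CPM in WT tumor. Hoxa6 had its highest mean, 3.26 ± 2.04 CPM, in K74R MSC, and Hoxa11, which forms the forearm, 6.38 ± 0.361 CPM in K74R tumor. In Hoxb, Hoxb3 stayed between 0.538 and 1.57 CPM in every group. Hoxb7 ran from 0.0684 CPM in K74R BM to 3.55 ± 3.02 CPM in WT MSC, where the libraries had 1.41 and 5.69 CPM. In Hoxc, Hoxc4 had 8.84 ± 0.468 CPM and Hoxc5 4.23 ± 0.622 CPM in WT tumor, and both were under 0.24 CPM in BM groups. Hoxc8, which patterns the lower thorax, was read mainly in MSC, with 5.10 and 3.52 CPM for WT and 7.77 and 6.56 CPM for K74R, against 0.471 ± 0.197 CPM in WT tumor.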

How the data were processed

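RNA was measured in 16 mouse libraries in 6 groups of genotype and tissue, grouped by GEO's labels. The authors deposited raw counts per gene, as whole numbers. Per the labels' protocols, RNA was taken with TRIzol and libraries were made with a KAPA mRNA kit. Per the submitters' processing notes, FastQC, MultiQC, Trimmomatic 0.38, HISAT2 2.1.0 and featureCounts 1.6.0 were used on GRCm38; strand, annotation release and multi-mapping settings are not given in those notes.

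Identifiers were matched to GENCODE M21, and all 55536 matched. CPM is the count over library total times TMM factor (all libraries together), and RPKM is CPM per kilobase of union exon length. A mean is given with its SD over libraries. A limit for 0 counts is 3 counts. Tests were edgeR 4.0.16's quasi-likelihood test in R 4.3.3 on all genes that passed filterByExpr, with TMM scaling, Benjamini-Hochberg adjustment and a threshold of 0.05. Genotypes were tested within a tissue, tissues within a genotype, and interactions over all libraries. Standard errors were taken as the absolute log2 fold change divided by the square root of F. The scripts were tested on simulated data. Alternatives were relative log expression factors, library size alone, no low-count filter, a 1 CPM filter, DESeq2 1.42.0, limma 3.58.1 with voom weights, 1 model of all libraries, the replicate number as a block and each library left out.

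Members that reach a group mean of 1 CPM, or are called between genotypes, are described with values. Full statistics go to members called between genotypes, to the 2 of smallest p in a tissue where none was called, and to the highest member per length of each cluster and tissue. From the TALE, upstream and retinoic acid lists, called genes are named (up to 2 in each direction), or else the 2 of smallest p. Counts cover all members and listed genes, but values of a few single genes are not reported here. The members and lists were chosen with earlier results of these data known, and nothing here is independent of those. Skin markers summed to at most 2.53 CPM in a library, muscle markers to between 0.986 and 62.1 CPM in BM, MSC and WT tumor libraries and up to 72.9 CPM in K74R tumor, and stem and progenitor markers to between 539.4 and 662.1 CPM in BM. No gene of the skin or muscle list was called between genotypes with edgeR or limma-voom; DESeq2 called Acta1 in MSC.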

Additional observations from a re-analysis of the deposited data

Results flagged for a closer look

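The effect of K74R on 4 Hox genes differed between tissues by the interaction test of edgeR, which is why they are listed. That test shares the spread over all groups, although the MSC replicates stood further apart than those of BM and tumor. Hoxa9 had a K74R effect 1.20 log2 units higher in MSC than in BM (adjusted p = 0.0163). Hoxb5 had an effect of -4.19 in MSC relative to BM (adjusted p = 0.0398), on 1 count in WT BM and 8 counts in K74R BM. Hoxb9 had an effect of -6.20 in MSC relative to tumor (adjusted p = 0.00356), where it averaged 0.248 ± 0.178 CPM for WT and 0.368 ± 0.254 CPM for K74R (SD, n = 3 and 3). Hoxb8 had an effect of -3.23 in MSC relative to tumor (adjusted p = 0.0383), where it averaged 4.32 ± 0.549 and 4.57 ± 0.772 CPM. Of the endothelial markers 4 were lower in K74R past the threshold in the same MSC libraries (edgeR). The macrophage markers Lyz2, Csf1r and Adgre1 were lower without passing it (adjusted p = 0.164, 0.101 and 0.133, edgeR). The part of either cell type was not tested.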

How the results depend on the processing

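The number of Hox genes called between genotypes in MSC was 1 with edgeR, beside 3.34% of all genes. It was 6 with DESeq2 (13.4% of all genes), 0 with limma-voom (2.8%) and 10 in a single model of all 16 libraries (24.4%). Without a filter on low counts it was 9. For that setting and the others below, the share of all genes is not given here. Their counts are therefore not a result about Hox genes in particular. Leaving out libraries gave 0 to 1, with 0 without either K74R MSC library. The interaction of MSC with BM, 2 genes, was 4 without the filter, 5 with DESeq2 and 1 to 4 on leaving out a library: 4 without WT MSC library 1, and 1 without WT BM library 2 or 3, K74R BM 2 or 3, WT MSC 2, K74R MSC 1 or any WT tumor. That of MSC with tumor, also 2, ranged from 1 to 4: 4 without K74R MSC library 2, and 1 without WT BM 3, K74R BM 1, K74R MSC 1, any WT tumor or K74R tumor 2 or 3. The replicate numbers are shared between groups, but they did not pair the libraries (correlations of same-numbered deviations 0.284, 0.138 and -0.103 in BM, -0.179 in MSC, 0.0278, -0.0531 and 0.0527 in tumor). With the replicate number as a block the MSC genotype count was 3 and the interaction of MSC with BM 1. The crossed replicate block in MSC, added after seeing the data, gave 6. Hoxd8 in WT MSC against WT tumor, at -0.31, ranged from -1.02 to 0.174 on leaving out libraries and turned sign without WT MSC library 1; the causes of these shifts were not tested.

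The tissue counts moved by less than 1.5 times under each alternative. Leave-one-out ranges were 28 to 30 and 22 to 24 (MSC against BM, WT and K74R), 24 to 26 and 24 to 28 (tumor against BM), 18 to 23 and 18 to 22 (MSC against tumor). In BM and tumor the genotype counts stayed at 0. Of the values of the single genes named in a comparison under alternatives, 959 kept direction and side of the threshold, 44 passed newly, 38 no longer passed and 13 turned sign, none of them called in the comparison concerned. Besides Hoxd8 between tissues, these were 3 genes between genotypes in MSC. Hoxb2, at -0.02, was 0.127 with limma-voom, 0.0753 with the replicate block, 0.0523 with the crossed block, 0.934 without WT MSC library 2 and 0.285 without K74R MSC library 1. Hoxd9, at -0.12, was 0.0995, 0.0504, 0.0323, 0.975 and 0.139 in the same order, and Hoxd8, at -0.12, was 0.00595 with limma-voom and 0.585 without WT MSC library 2. The lowest values on leaving out a library were -0.61, -0.748 and -0.601 for Hoxb2, Hoxd9 and Hoxd8, each without WT MSC library 1. Library size alone moved the median of all genes from -0.05 to -0.25 in WT MSC against WT tumor and from 0.01 to 0.19 in WT tumor against WT BM, and no member called in those comparisons changed direction with it. A BM library held 277 to 386 Hox counts, and 6 of the 39 members were tested between genotypes there.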
